A study of Rattus norvegicus with 60 samples.

Results

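The major histocompatibility region of the rat was taken as the bins of 500 nt on chromosome 20 that start between 1 and 8000000 in the rn5 build. It holds 16000 of the 5805202 full bins of the methylated DNA data, and 271 annotated genes start in it. The tissue was hippocampal CA1 of Sprague-Dawley rats aged 90 to 120 d. The labelled times, 1 h and 24 h, follow contextual threat recognition training, and naive and place groups are labelled beside the threat group. Methylated DNA was captured with a methyl-binding domain (MBD) protein and sequenced. Captured libraries numbered 3 for naive, 4 for place and 3 for threat rats at each time, beside 3 inputs sequenced without capture. PolyA+ RNA was sequenced in 9 naive libraries without a time, 6 place and 8 threat libraries of 1 h, and 5 place and 6 threat libraries of 24 h. No allele, drug or transgene is given for any group, and the labels do not describe the place and threat experience further. They do not say that replicates were separate animals, so the spread that the p-values rest on is that of the samples, and it may be technical.

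In the rat the major histocompatibility complex is called RT1. Its class I genes (RT1-A, RT1-CE, RT1-M, RT1-S and RT1-T families) include those whose molecules present peptides from inside the cell to CD8 T cells. Its class II genes (RT1-B, RT1-D and RT1-H families) encode molecules that present peptides from outside, mostly on microglia and other antigen-presenting cells in brain. The class III stretch between them holds genes of other functions, among them the Notch receptor Notch4, complement genes and 70 kDa heat shock proteins. Sprague-Dawley is an outbred stock, so animals can carry different RT1 alleles, and the class I families differ in gene number between haplotypes. Genotype was not measured here, and reads from near-identical RT1 copies cannot be assigned with certainty.

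Capture depends on methylated CpG, so the number of CG dinucleotides near a gene start bears on what can be captured there. Promoter sequence (the 250 bases before the start, RefSeq, build GRCr8) was matched by symbol for 123 of 255 symbols of the region, giving 130 promoters. Their median was 10 CG, against 5 over all 33469 rat promoters in that table. A CG, which reads the same on both strands, was present in 97.7% of the region's promoters and 92.2% of all. The 4 promoters below span that range and belong to genes described in the results; CG is in capitals. They come from a different build than the bins and serve as a guide to CG content only. On chromosome 20 of GRCr8 they lie at 4189073 to 4189322 (minus strand, Notch4), 4515165 to 4515414 (plus, RT1-Da), 4872621 to 4872870 (plus, RT1-A2) and 4977721 to 4977970 (minus, Daxx).
Notch4, 4 CG: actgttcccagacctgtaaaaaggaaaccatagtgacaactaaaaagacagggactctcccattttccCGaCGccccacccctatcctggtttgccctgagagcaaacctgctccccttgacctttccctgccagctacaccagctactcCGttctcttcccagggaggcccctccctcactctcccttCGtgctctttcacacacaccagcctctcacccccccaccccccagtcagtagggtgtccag
RT1-Da, 0 CG: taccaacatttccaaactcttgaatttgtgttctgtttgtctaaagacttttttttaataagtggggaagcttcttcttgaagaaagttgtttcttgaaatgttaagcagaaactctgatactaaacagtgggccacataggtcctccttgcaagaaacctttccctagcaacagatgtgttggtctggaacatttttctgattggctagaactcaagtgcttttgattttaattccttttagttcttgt
RT1-A2, 13 CG: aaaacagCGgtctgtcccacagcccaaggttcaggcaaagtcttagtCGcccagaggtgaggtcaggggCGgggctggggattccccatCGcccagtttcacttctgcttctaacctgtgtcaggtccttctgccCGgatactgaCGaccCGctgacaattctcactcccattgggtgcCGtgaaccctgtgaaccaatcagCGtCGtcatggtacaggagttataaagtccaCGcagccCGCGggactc
Daxx, 22 CG: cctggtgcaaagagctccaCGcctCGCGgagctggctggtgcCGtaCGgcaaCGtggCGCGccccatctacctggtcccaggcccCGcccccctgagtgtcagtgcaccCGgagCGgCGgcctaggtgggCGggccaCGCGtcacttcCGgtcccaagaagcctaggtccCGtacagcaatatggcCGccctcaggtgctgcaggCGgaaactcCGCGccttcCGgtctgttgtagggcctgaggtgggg

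Captured signal was concentrated in the last 2 Mb of the region, the stretch that holds most class II and class III genes, the RT1-CE genes and much of extended class II. Windows are counted from the chromosome start, so Mb 7 is the seventh. Values are RPKM, reads scaled to bin length and library size, and the mean over all bins of the genome was 0.275 in captured and input libraries alike. At 1 h the captured and input means were 0.838 and 0.535 RPKM in Mb 7 and 0.786 and 0.467 in Mb 8. They were 0.0319 and 0.0587 in Mb 2 and 0.0564 and 0.0944 in Mb 4, and all 2000 bins of Mb 3 were at 0 in every library. Over the region 31.9% of bins were at 0 in every library, against 9.81% over the genome. Captured means of the 24 h libraries had the same order of windows with less contrast, at 0.501 and 0.364 RPKM in Mb 7 and 0.411 and 0.293 in Mb 8. Input was not flat: in Mb 7 at 1 h it stood at 0.513 to 0.560 RPKM in each of the 3 libraries, above the genome mean. In the libraries of 1 h 31.4 to 39.9 M reads were recovered in the bins, and 42.2 to 59.5 M in those of 24 h. The library sizes that the RPKM scale implies were larger, at 39.3 to 49.9 M and 52.8 to 74.5 M. A tested bin of the region had a median of 39 and 43 reads per library.

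**Figure D1:**
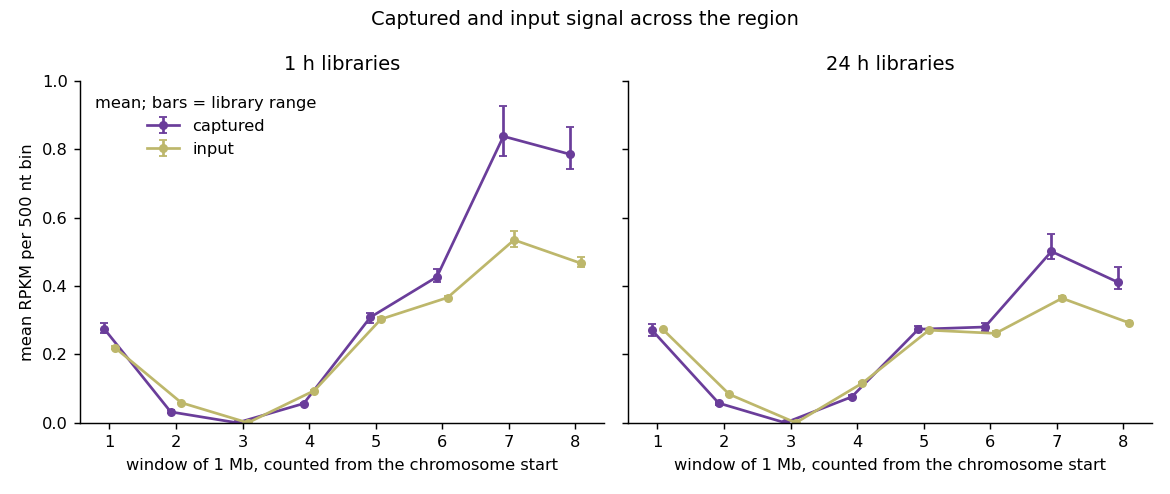
Mean RPKM of captured and input libraries in each 1 Mb window of chromosome 20 from 0 to 8 Mb, at 1 h and 24 h; points are means over libraries and bars the range over libraries. Mb 7 and Mb 8 stand highest in both kinds of library, and Mb 3 is at 0.

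Of 2783 bins of the region with a mean of at least 0.5 RPKM at 1 h, 2191 were higher in captured than in input libraries and 261 were lower (limma, adjusted p under 0.05). Over all 827288 such bins the shares were 77.1% higher and 5.24% lower. At 24 h 1694 of 2167 bins were higher and 240 lower, against 86% and 2.69% of all 748041. The number lower in captured depended on scaling: with quantile normalization it was 684 at 1 h and 448 at 24 h, and the number higher was 1067 and 498. Across 10894 bins of the region with any signal, the rank correlation of captured with input means was 0.549 at 1 h and 0.381 at 24 h. That of captured means at 1 h with those at 24 h was 0.849. These are descriptions over bins that share libraries and mappability, and the corresponding values over all bins were 0.556, 0.321 and 0.836.

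Of the 10 bins with the strongest capture at 1 h, 7 lay in genes. The highest of all, chr20:6588501-6589000, 505 nt from ENSRNOG00000000443, stood at 10.5, 11.1 and 11.9 RPKM in naive, 13.5, 9.47, 9.77 and 13 in place and 14.7, 15.3 and 13 in threat libraries, with inputs of 1.90 to 2.36. Itpr3, an inositol trisphosphate receptor that releases calcium from the endoplasmic reticulum, held 4 of the 10 highest bins, led by chr20:7725001-7725500 at 8.54 to 13.9 RPKM. Others lay in Ly6g6f (chr20:7145001-7145500, 9.38 to 12.5 RPKM), in Ddr1, a collagen receptor kinase (chr20:5662501-5663000, 8.28 to 12.2), and in Ehmt2, a histone H3 lysine 9 methyltransferase (chr20:6665501-6666000, 6.81 to 12.9). In the first and in the Itpr3 bin the threat libraries lay above all naive ones, but neither passed the group test; in the other 3 bins the groups overlapped.

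Class I genes stood out in the input libraries. At 24 h all of the 10 highest input bins were in or near RT1-CE genes, led by chr20:6759001-6759500 in RT1-CE7. That bin had inputs of 2.76, 3.35 and 3.17 RPKM and captured values of 1.11 to 1.57, so input exceeded capture in every library. The bin chr20:6845501-6846000, 5806 nt from RT1-CE1, was high in both, at 5.60 to 7.58 RPKM captured and 2.54 to 3.33 input at 24 h. At 1 h the highest input was 5.61 to 6.44 RPKM in chr20:7464501-7465000, 9639 nt from RT1-A1, where captured libraries had 1.21 to 3.46. The next was chr20:6066001-6066500 in Tap1, a subunit of the peptide transporter that loads class I molecules, with inputs of 5.57 to 5.89 at 1 h but 0.285 to 0.451 at 24 h. Input libraries of 1 time lay close together in these bins, whereas the Tap1 bin differed between times. Copy number of these genes in the samples, and reads that map to several copies, were not measured, and their part in the input signal was not tested.

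Gene starts of the region were low in captured DNA where the gene's RNA was detected. The 127 genes that passed the RNA filter had a median of 0.0148 RPKM captured in the start bin and 0.594 in the gene body at 1 h. Their input medians were 0.376 and 0.431 RPKM, a smaller gap. The 144 other genes had medians of 0.102 captured at the start and 0.274 in the body. Of these, the 62 olfactory receptor genes had 0.0193 at the start and 0.0242 in the body. At 24 h their start median was 0.168, against 0.0353 for the 127 detected genes. Class I differed from the detected genes as a set: its 16 detected genes had 0.217 at the start and 0.207 in the body at 1 h, with inputs of 0.928 and 0.880 RPKM. The 37 detected class III genes had 0.0192 and 0.735, and the 15 of extended class II 0.00489 and 0.864. Tap1, Psmb9 (an immunoproteasome subunit), Tapbp (tapasin, which bridges class I molecules to the transporter) and both listed copies of RT1-DMa were at 0 RPKM in the start bin in every captured library of 1 h. A count of 0 there allows up to 0.134 to 0.152 RPKM, the value of 3 reads; this limit covers counting error only, since copies made by PCR are not marked.

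Start bins of genes whose promoters held 10 or more CG had lower captured medians than those with fewer. At 1 h the median captured value was 0.168 RPKM for 37 genes with 0 to 3 CG and 0.202 for 27 genes with 4 to 9. It was 0.0142 for 36 genes with 10 to 19 and 0.00710 for 30 genes with 20 to 60 CG. The medians did not fall at every step, since the first step was upward. The input medians of the same 4 sets were 0.261, 0.327, 0.384 and 0.437 RPKM. At 24 h the captured medians were 0.196, 0.102, 0.0221 and 0.0174 RPKM and those of input 0.2504, 0.253, 0.232 and 0.197, so input rose over the sets at 1 h and not at 24 h. Single genes did not follow the sets. Daxx, a histone H3.3 chaperone with 22 CG, had 0.005 RPKM (0 to 0.0488) over the 10 captured libraries, RT1-A2 with 13 CG had 0.177 (0.0490 to 0.292), RT1-Da without a CG had 0.051 (0 to 0.179) and Notch4 with 4 CG had 0.282 (0.191 to 0.438). RT1-CE5 was an exception among detected class I genes, with 1.57 RPKM (0.966 to 2.31) in its start bin and 0.503 in its body.

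At 1 h the captured signal over one short stretch of Notch4 was higher in threat than in naive libraries. Notch4 (ENSRNOG00000000442, chr20:6409150-6433141, plus strand in the deposited positions) encodes a Notch receptor found mainly in endothelial cells, and 49 bins overlap it. The bin chr20:6415501-6416000, which begins 6351 nt after the gene start, stood at 3.30, 3.13 and 3.41 RPKM in naive libraries and at 13.8, 19.98 and 11.4 in threat libraries. Place libraries were split, with 3.62 and 3.89 in replicates 1 and 3 and 10.8 and 13.4 in replicates 2 and 4. Naive and threat libraries did not overlap, and the 2 high place libraries lay within or just below the threat range. Inputs were 1.85, 1.69 and 2.28 RPKM.

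The threat minus naive difference in that bin was 2.07 ± 0.24 in log2(RPKM + 0.25) (SE; limma adjusted p = 1.65e-07; n = 3 and 3). The neighbour chr20:6415001-6415500 had 2.95, 2.89 and 2.61 in naive, 2.81, 7.31, 3.50 and 8.55 in place and 10.3, 13.7 and 9.50 in threat libraries, a difference of 1.88 ± 0.22 (adjusted p = 1.65e-07). The next bin, chr20:6416001-6416500, differed by 1.31 ± 0.23 (0.0059), with 1.26 to 1.42 in naive and 2.86 to 5.27 in threat libraries and the same high place replicates at 2.85 and 4.48. The naive means of these 3 bins, 3.28, 2.82 and 1.33 RPKM, were under 2 times their input means of 1.94, 1.92 and 0.889. They passed the filter, which asks for 2 times input over all captured libraries, through the place and threat libraries. The first 2 kept their call in all 18 alternatives, that without the input rule included, at 1.79 to 2.25 and 1.60 to 1.99 log2. The third lost it in 4: without the input rule (1.31, adjusted p = 0.11), under quantile normalization (1.11, 0.153), under median-ratio scaling (1.14, 0.0635) and without threat replicate 2 (1.07).

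The neighbouring bin chr20:6416501-6417000 had the same libraries high at a low level. Naive libraries had 0.0489 to 0.203 RPKM, place replicates 2 and 4 had 0.598 and 0.627, and threat libraries 0.239 to 0.704. Place replicates 1 and 3 had 0.0905 and 0.0973, and inputs were 0.129 to 0.577. The bin after it, chr20:6417001-6417500, is described below. Stretches further along the gene did not follow that pattern. In chr20:6418001-6418500 the means were 7.82 RPKM in naive, 7.01 in place and 8.06 in threat libraries. In 2 bins threat replicate 2 stood low, at 0.185 against 1.06 and 1.24 in chr20:6421501-6422000 and at 0.786 against 3.07 and 3.05 in chr20:6425001-6425500. Near the end of the gene, in chr20:6431501-6432500, captured group means were 0 to 0.0113 RPKM at 1 h while input means were 0.677 and 0.596. At 24 h the bins chr20:6415501-6416000 and chr20:6415001-6415500 were at 0.196 to 0.767 RPKM in all captured libraries. This was too low for the test, and the groups overlapped. Their input means were also lower, at 0.0311 and 0.147 RPKM against 1.94 and 1.92 at 1 h. The difference between times in these bins was not tested. Notch4 RNA stood at 1.69 ± 0.30 FPKM in naive, 1.82 ± 0.22 in place 1 h and 1.89 ± 0.33 in threat 1 h libraries (SD, n = 9, 6 and 8) and passed no test.

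**Figure D2:**
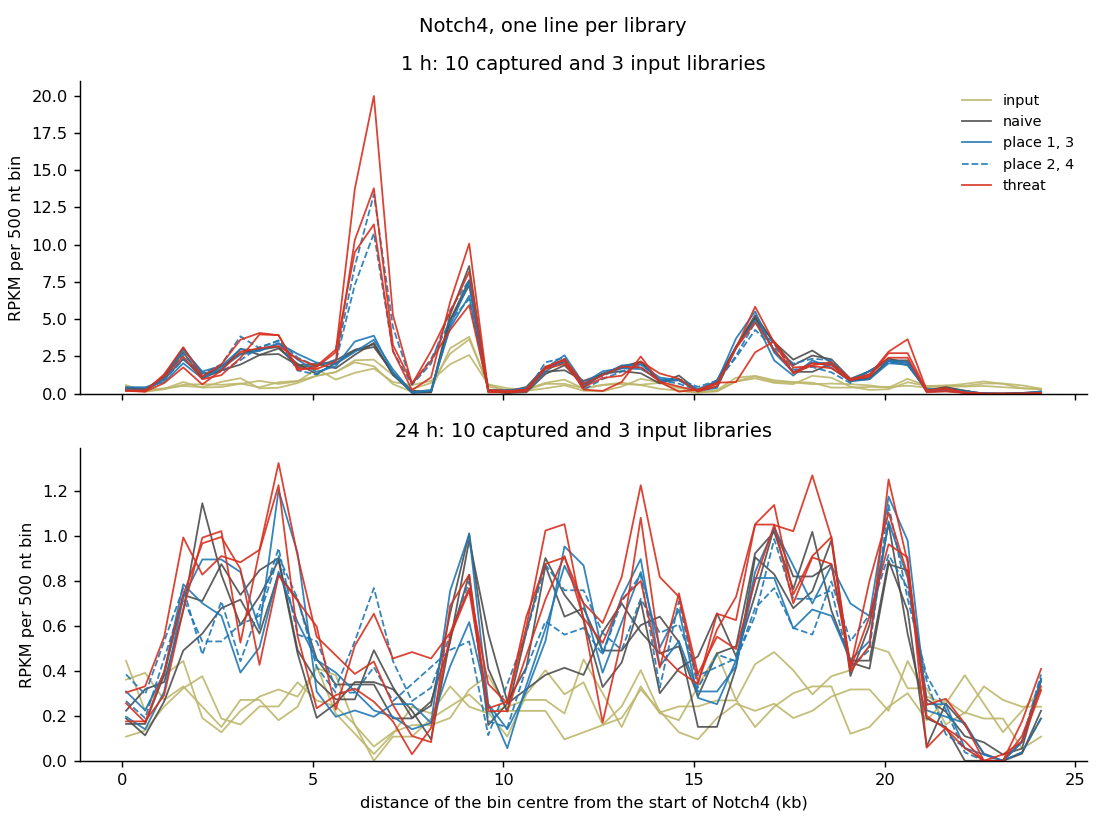
Captured RPKM of each library along Notch4, plotted against the distance of the bin centre from the gene start in kb, at 1 h and 24 h, with 1 line per library and input for comparison; place replicates 2 and 4 are dashed. At 1 h the 3 threat and these 2 place libraries rise above the others in the bins that begin 5851 and 6351 nt after the start.

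Over the region 6 of 1370 tested bins were higher in threat than naive libraries at 1 h and 0 were lower. Over all 350378 tested bins 0.0146% were higher, 0.00143% lower and 0.016% passed in either direction. The other 3 lay outside genes. The bins chr20:4819501-4820000 and chr20:4820001-4820500 lie 1316 and 816 nt from Btnl5, a butyrophilin-like gene. The first stood at 1.42, 1.32 and 1.56 in naive, 1.22, 2.16, 1.41 and 3.45 in place and 3.27, 3.19 and 3.34 RPKM in threat libraries (1.06 ± 0.21 log2, adjusted p = 0.0308). The second rose by 1.03 ± 0.19 (0.0139), with place replicates 2 and 4 again the higher ones at 3.27 and 4.83. In chr20:6524501-6525000, 22861 nt from the extracellular matrix gene Tnxb, naive libraries had 3.41, 3.23 and 3.92, place 4.13 to 4.55 and threat 6.99, 7.31 and 5.73 RPKM (0.87 ± 0.17, 0.0285).

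These 3 calls were lost without the input rule, under quantile normalization, under median-ratio scaling and in edgeR on the recovered reads, where the region had 3, 2, 2 and 3 calls. The count rested on single libraries. It was 50 without threat replicate 3, 13 without naive replicate 3, 10 without place replicate 4, 3 without naive replicate 1 or 2 or threat replicate 1, and 2 without threat replicate 2. For these and later counts of calls with a library left out, the share over all features is not given here. They show only how the region's count moved. The median over the region's tested bins was 0.188 log2 higher in threat than naive libraries, and 0.171 over all tested bins. Tested bins held 45.1% of the captured reads recovered in bins in naive, 46.5% in place and 52.4% in threat libraries at 1 h, and the part of that shift in these calls was not tested.

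Place libraries differed from naive ones in 0 of 1370 bins at 1 h (0.00285% of all tested bins, 0.00171% higher and 0.00114% lower), and 44 bins had an unadjusted p under 0.05, which is 3.21% against 3.34% of all tested bins. The lowest p was again in Notch4, at chr20:6415501-6416000, with 0.99 ± 0.22 log2 and an adjusted p of 0.343. Leaving out place replicate 1 gave 2 calls and place replicate 3 gave 1. The 3 contrasts share their libraries. Threat and place libraries differed in 4 bins, 2 higher and 2 lower, against 0.0166% and 0.000856% of all bins, 0.0174% in either direction. The 2 higher ones were the Notch4 bins chr20:6415001-6415500 (1.10 ± 0.20, adjusted p = 0.0116) and chr20:6415501-6416000 (1.09 ± 0.22, 0.0467). Both were lost without the input rule, under quantile normalization and median-ratio scaling and in edgeR, and without place replicate 1 or 3, the low place libraries, or threat replicate 2. The second was lost also without naive replicate 2 or threat replicate 1.

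The 2 lower bins lay among olfactory receptor genes at the start of the chromosome. The bin chr20:495001-495500, 2528 nt from Olr1681, stood at 2.22, 1.84, 2.24 and 2.55 RPKM in place and at 0.805, 0.832 and 1.05 in threat libraries (-1.10 ± 0.22 log2, adjusted p = 0.0369). Naive libraries were spread over both levels, at 3.41, 2.59 and 0.753. The bin chr20:490001-490500 gave -1.12 ± 0.21 (0.0226) with the same order, naive replicate 3 being the lowest naive library at 0.653. Inputs were 0.16 to 0.783 RPKM in these bins. At 24 h the same bin near Olr1681 was at 0.881 to 1.52 in threat and at 1.03, 0.236, 0.112 and 0.530 in place libraries, so the order of the groups was not that of 1 h. The threat means of both bins, 0.896 and 0.643 RPKM, were under the filter, which they passed through the naive and place libraries. In edgeR both calls were kept, at -1.44 (adjusted p = 0.0395) for the bin near Olr1681 and -1.53 (0.0266) for the other. Both were lost under quantile normalization, at -1.16 and -1.15 (0.257 and 0.136), and under median-ratio scaling, at -1.22 and -1.23 (0.0762 and 0.0524). They were also lost without the input rule, with the fold as before, and without place replicate 1 or threat replicate 1 or 2, and chr20:490001-490500 also without place replicate 2. The count of 4 became 12 without place replicate 4, 8 without threat replicate 3, 7 without naive replicate 1, 1 without threat replicate 1 and 0 without place replicate 1 or threat replicate 2.

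At 24 h no bin of 264 tested passed for threat or place against naive (limma; 0.0105% and 0.0082% of 85335 bins passed), and 66 and 11 had an unadjusted p under 0.05. These are 25% and 4.17%, against 23.1% and 4.28% of all tested bins. Without naive replicate 1 there were 4 calls for threat, and without threat replicate 3 there was 1. Threat minus place gave 18 higher and 0 lower bins, 6.82% of those tested, which is near the 7.69% of all bins that were higher (0.00469% were lower and 7.7% passed in either direction). The Hspa1l bins chr20:7037001-7037500 and chr20:7036501-7037000 were the largest in genes, at 0.69 ± 0.16 and 0.64 ± 0.17 log2 (adjusted p = 0.0295 and 0.0329). Hspa1l is a 70 kDa heat shock protein gene. The first stood at 1.26, 0.797, 0.952 and 0.758 RPKM in place and at 1.76, 1.52 and 1.68 in threat libraries. Most place libraries were thus under the 1 RPKM that the filter asks of the captured mean, and the threat libraries raised that mean. Daxx had 1 bin higher (chr20:7542001-7542500, 0.57 ± 0.15, 0.0337), and so had RT1-Db2, a class II beta chain (chr20:6189001-6189500, 0.56 ± 0.18, 0.0495), and Itpr3 (chr20:7767001-7767500, 0.58 ± 0.16, 0.035). None of the 18 was called under quantile normalization, median-ratio scaling or in edgeR, where the counts were 0. The median over all bins was 0.275 log2 higher in threat, and 0.252 over the region. There were 53 calls without place replicate 1, 5 without place replicate 2, and 0 without place replicate 3 or 4 or threat replicate 1 or 2.

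No bin of 232 tested at both times differed between 24 h and 1 h in any of the 3 contrasts (0.00135%, 0% and 0% of 73982 bins), with 7, 9 and 12 bins at an unadjusted p under 0.05. These are 3.02%, 3.88% and 5.17%, against 3.91%, 3.87% and 6.62% of all such bins. Whole gene bodies gave 0 calls of 172 genes at 1 h and 0 of 168 at 24 h (limma, 0% of 13948 and 14918 genes). At an unadjusted p under 0.05 there were 29, 6 and 30 genes for threat minus naive, place minus naive and threat minus place at 1 h, and 47, 7 and 58 at 24 h. At 1 h these are 16.9%, 3.49% and 17.4%, against 12.2%, 3.41% and 9.49% of all genes tested. At 24 h they are 27.98%, 4.17% and 34.5%, against 20.7%, 4.26% and 27.2%.

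The share of the captured reads recovered in bins that fell in the region was 0.334% ± 0.004 in naive, 0.334% ± 0.009 in place and 0.356% ± 0.018 in threat libraries at 1 h (SD, n = 3, 4 and 3). At 24 h it was 0.233% ± 0.001, 0.232% ± 0.004 and 0.239% ± 0.007. Exact 2-sided permutation tests of the 6 contrasts gave p from 0.114 to 1, and Benjamini-Hochberg values from 0.343 to 1. With 3 against 3 libraries such a test cannot go below 0.1.

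Some bins had libraries at separate levels within a group. A bin was counted when the largest gap between the sorted libraries of a group reached 2 in log2(RPKM + 0.25), each side spanned at most 1.5, and the upper side averaged at least 1 RPKM. At 1 h 5 of 2315 eligible bins met this rule, 0.216%, against 2 of 18876 (0.0106%) on the rest of chromosome 20 and 0.0404% of all eligible bins. At 24 h it was 0 of 1217, against 0.0225% of all. Input libraries gave 0 of 851 bins at 1 h and 0 of 447 at 24 h, with 3 libraries each. Over all bins input also gave 0 of 146685 and 0 of 34676, so the region's input did not differ from the rest by this rule. The counts are small and depend on the rule. At 1 h a gap of 1.5 gave 12 bins (0.518%, against 0.133% of all) and a gap of 3 gave 0 (0.00509% of all). An upper level of 2 RPKM gave 2 (0.0864%, against 0.0228% of all), and a pseudocount of 1 gave 0 (0.00772% of all). Leaving out naive replicate 3 lowered the count to 2 (0.0864%, against 0.0389% of all) and naive replicate 1 to 3 (0.130%, against 0.0437%). Leaving out place replicate 4 of 24 h raised that of 24 h to 3 (0.247%, against 0.0243% of all).

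The 5 bins fell into 3 patterns of libraries. In chr20:461501-462000, 3924 nt from Olr1678, naive replicates 1 and 2 had 2.19 and 1.03 RPKM and replicate 3 had 0. The 3 threat libraries were all at 0 and the 4 place libraries were at 1.15 to 1.66. A count of 0 in a threat library allows 0.139 to 0.151 RPKM. The neighbour chr20:461001-461500 and the bin chr20:493501-494000 near Olr1681 had the same low libraries, naive replicate 3 at 0 and threat libraries at 0 to 0.191. At 24 h the first bin was at 1.15, 0, 0 and 0.379 RPKM in place and 0.284 to 0.855 in threat libraries. Libraries of 1 group were thus uneven at 24 h too, without meeting the rule.

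The second pattern was the Notch4 bin chr20:6417001-6417500, which begins 7851 nt after the gene start. Naive libraries were at 0.0979 to 0.102 RPKM, place replicates 1 and 3 at 0.181 and 0.243, place replicates 2 and 4 at 2.02 and 2.33, and threat libraries at 2.21, 2.87 and 1.10. These are the libraries that stood high in the tested Notch4 bins. The bin itself was not in the group test, since its captured mean was under 2 times its input mean of 0.615 RPKM. Inputs were 0.258, 0.866 and 0.721 RPKM, and at 24 h all captured libraries were at 0.0827 to 0.455.

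In the third, place replicate 1 alone was low. It had 0.272 RPKM in chr20:4737501-4738000, 16571 nt from ENSRNOG00000047657, where place replicates 2 to 4 had 3.45 to 4.30 and naive and threat libraries 1.91 to 4.78. With the gap of 1.5 the same library was low in RT1-CE7 (chr20:6743001-6743500, 0.905 against 3.82 to 5.82) and 3109 nt from RT1-CE3 (chr20:7004501-7005000, 1.72 against 6.22 to 7.07). At 24 h no place library stood apart there, for example at 1.20 to 1.44 RPKM in the RT1-CE7 bin. Whether such levels reflect genotype, copy number or methylation was not tested, since no sample has a genotype and each input library is not labelled as belonging to 1 captured library.

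**Figure D3:**
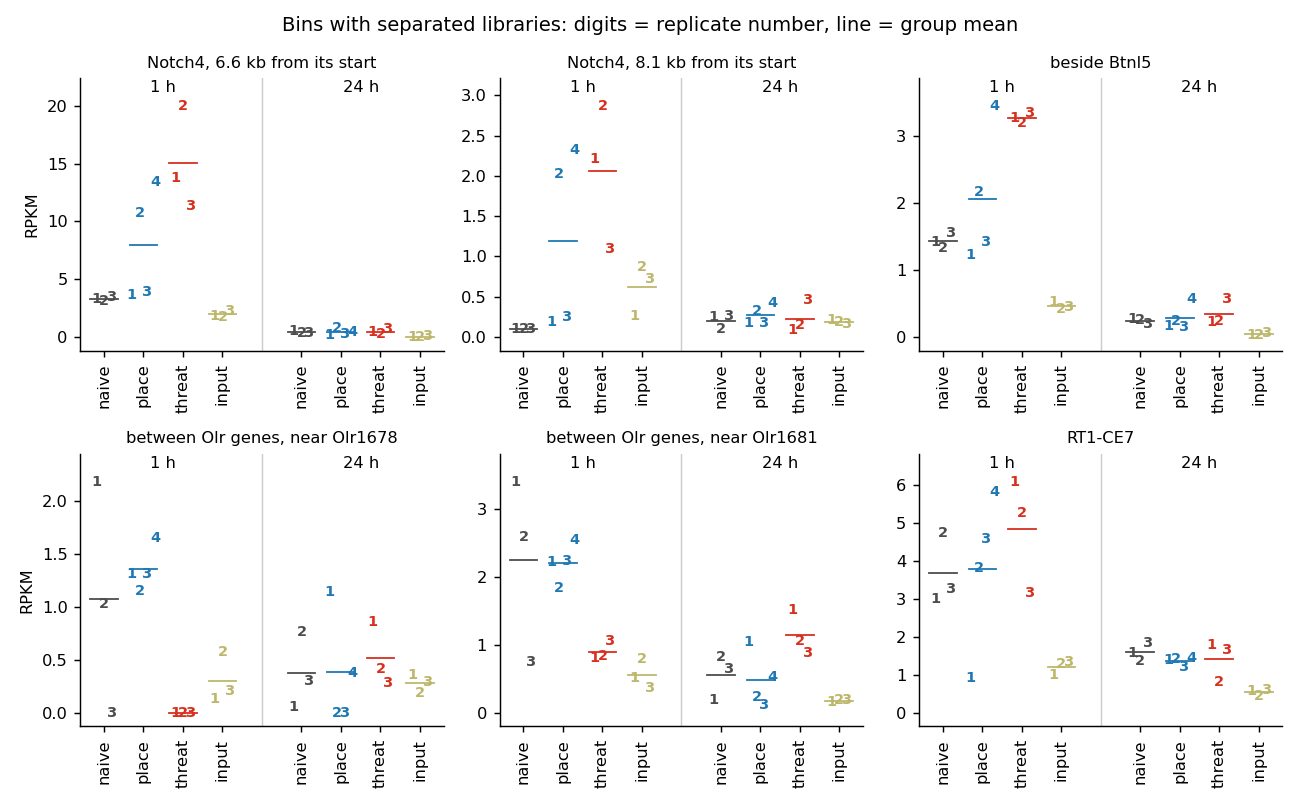
Captured RPKM per library in 6 bins, by group and time; digits are replicate numbers and lines are group means. At 1 h place replicates 2 and 4 sit near the threat libraries in the 2 Notch4 bins, place replicate 4 does so in the Btnl5 bin with replicate 2 between the levels, naive replicate 3 sits with the threat libraries in the 2 olfactory bins, and place replicate 1 is alone in RT1-CE7.

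The spread between replicates was near that of other bins for most of the region. The median residual SD of tested bins was 0.232 log2 at 1 h and 0.207 at 24 h, against 0.230 and 0.204 over all tested bins. At 1 h 2.26% of the region's bins, 31 of 1370, lay above the 99th percentile of all bins, and at 24 h 0.379%, 1 of 264.

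RNA of 127 of the 271 genes passed the filter of 1 FPKM in 5 libraries, and 71 genes were at 0 in all 34 libraries. None of 62 olfactory receptor genes passed, whereas 16 of 28 class I, 6 of 13 class II and all 6 listed antigen processing genes did. In class III 37 of 56 passed, among the framework genes between class I blocks 18 of 23, and in extended class II 15 of 17. CA1 pyramidal markers averaged 4.35 to 5.67 in log2(FPKM + 1) per library, with no marker at 0 throughout. In bulk tissue, fewer cells of a type and less RNA per cell cannot be told apart.

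Class I RNA was led by RT1-S3 with a median of 10.4 FPKM over the 34 libraries (7.73 to 12.1), RT1-A2 with 9.62 (7.35 to 16.4) and RT1-M3-1 with 7.09. Class II presentation chains were low: RT1-Da had 0.339 to 3.20 FPKM and RT1-Db1 0.218 to 1.34. The class II peptide editors RT1-DMa and RT1-DMb are each listed at 2 positions, with medians of 7.10 and 7.48 FPKM for RT1-DMa. Across libraries the copies of RT1-DMa correlated at 0.834 in log2 values, so shared reads cannot be separated from shared expression. Tapbp had 7.35 FPKM, while Tap1 and Psmb9 had group medians of 1.23 to 1.48 and 2.03 to 2.74.

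**Figure D4:**
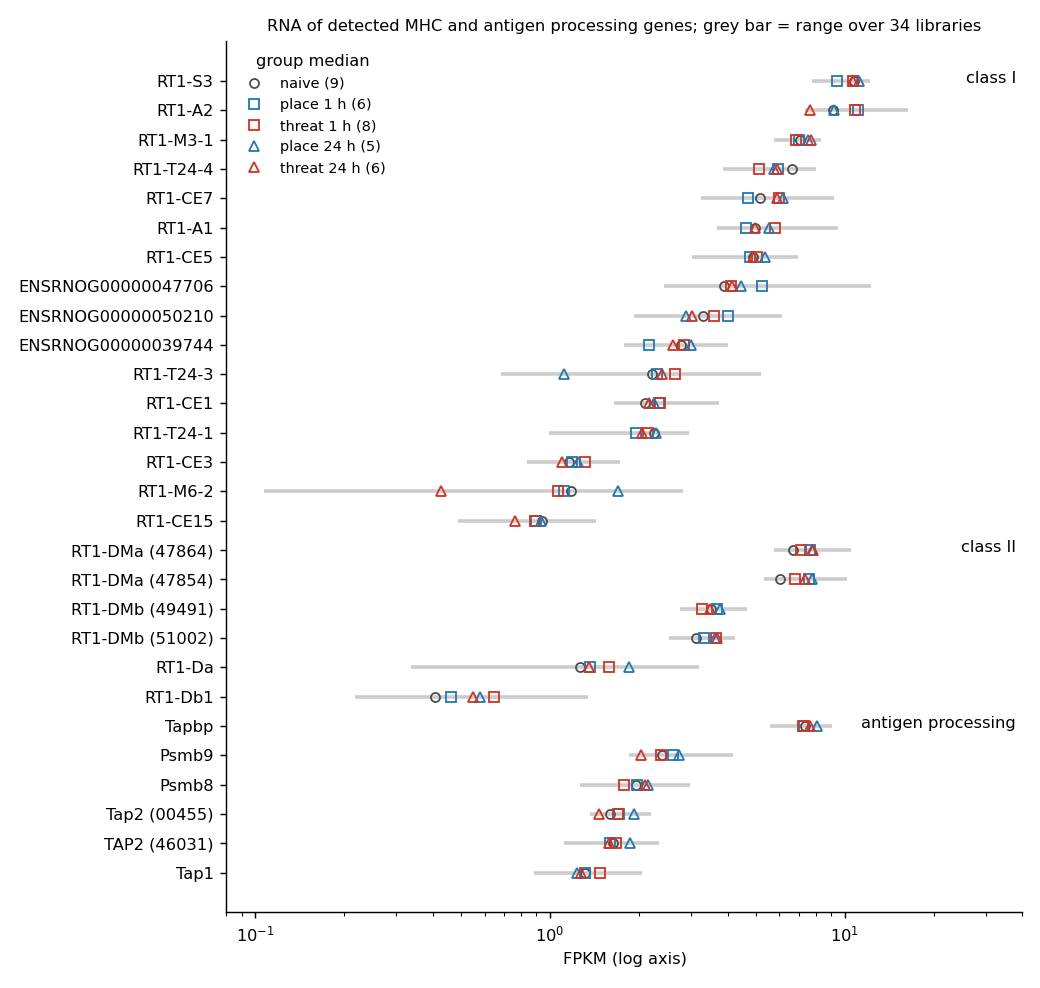
Group medians of RNA (FPKM, log axis) for the detected class I, class II and antigen processing genes; grey bars give the range over the 34 libraries. RT1-S3, RT1-A2, RT1-M3-1, RT1-DMa and Tapbp stand highest, and RT1-M6-2, RT1-Da and RT1-T24-3 have the widest bars on this axis.

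Calls among presentation genes were few. Of 16 class I, 6 class II and 6 antigen processing genes none passed in threat or place against naive at 1 h. None passed in place against naive at 24 h or in threat against place. Over all 13153 genes the shares that passed were 0.928%, 0.129%, 5.05% and 0% in that order. In threat against naive at 24 h the share was 10.1%. The counts were not tested against these shares. At 24 h 1 class II gene passed in threat against naive, RT1-DMb (ENSRNOG00000051002), at 3.12 ± 0.36 FPKM in naive and 3.74 ± 0.30 in threat libraries (SD, n = 9 and 6; 0.20 log2, limma adjusted p = 0.0386). It overlapped between groups, was lost in 13 of 43 alternatives, and its other listed copy gave -0.01. The median over the 16 class I genes was 0.06 log2 for threat minus naive at 1 h and -0.02 at 24 h, against 0.02 and 0.01 over all genes. None of 10 microglia markers passed in these 2 contrasts, and their mean level per library ran from 3.95 to 4.43 log2 in naive, 3.92 to 4.32 in threat 1 h and 4.03 to 4.31 in threat 24 h libraries.

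At 1 h the stress-inducible heat shock protein gene Hspa1b was higher after threat training. It is listed at 2 positions, chr20:4802581-4804506 (ENSRNOG00000045654) and chr20:6958076-6960001 (ENSRNOG00000050647), whose values correlated at 0.896 across libraries, so they may share reads and are not counted as independent. The first stood at 1.15 to 2.00 FPKM in naive libraries (median 1.64), 1.76 to 3.53 in place 1 h (2.76) and 2.37 to 6.29 in threat 1 h (2.90). Threat and naive libraries did not overlap there, and overlapped slightly at the second position (1.36 to 1.99 and 1.90 to 6.37). The differences were 0.72 ± 0.12 and 0.65 ± 0.13 in log2(FPKM + 1) (adjusted p = 0.00144 and 0.00676), and for place minus naive 0.51 and 0.53 without a call (0.155 and 0.139). At 24 h both copies were within 0.13 of naive.

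Of 127 genes tested 2 rose and 1 fell in threat against naive libraries at 1 h, against 0.928% of all 13153 genes in either direction. The gene that fell was Rnf5, an endoplasmic reticulum ubiquitin ligase, by 0.19 log2 (adjusted p = 0.0451), a call lost in 26 of 44 alternatives. No gene passed in place against naive (0.129% of all) or threat against place (0%), with 15 and 1 at an unadjusted p under 0.05 (11.8% and 0.787%, against 9.76% and 4.26% of all genes). Naive replicates 1 to 4 and 5 to 9 form 2 blocks of columns in the deposited table, not a labelled batch. Against replicates 1 to 4 alone the count was 0 (Hspa1b 0.67 and 0.69, adjusted p = 0.091 and 0.096), and against 5 to 9 alone it was 26, where 1684 genes rose and 926 fell of all 13153. Without naive replicate 4 it was 12. Choroid plexus markers were uneven, at 0.46 to 2.15 log2 in naive and 0.54 to 5.38 in threat 1 h libraries, with a median difference of 1.18 over the 4 of 8 tested and 0 called. Without the 2 threat libraries richest in them, Hspa1b was 0.60 and 0.50 higher (0.00896 and 0.0464).

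At 24 h 3 genes rose and 9 fell in threat against naive libraries (10.1% of all genes passed), and 2 rose and 7 fell in place against naive (5.05%). These comparisons share their naive libraries. Col11a2, a fibrillar collagen chain in extended class II, moved most, from 26.3 ± 6.4 FPKM in naive to 15.1 ± 1.2 in threat and 17.1 ± 2.0 in place libraries (SD, n = 9, 6 and 5). It fell by 0.73 log2 in threat (adjusted p = 0.000287) and by 0.56 in place (0.00913). Naive libraries ranged from 17.6 to 34.5 FPKM, threat libraries from 13.3 to 16.6 and place libraries from 14.5 to 19.2, so naive and threat did not overlap.

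Other genes that fell in both were Ager, the receptor for advanced glycation end products (-0.48 and -0.45), the Ral exchange factor Rgl2 (-0.46 and -0.37), the RNA helicases Dhx16 (-0.41 and -0.28) and Ddx39b (-0.34 and -0.32), and the mitochondrial valyl-tRNA synthetase Vars2 (-0.36 and -0.28). Rnf5 rose (0.19 and 0.25), as did the phosphatase inhibitor Ppp1r11 (0.16 and 0.16). The retinoid receptor Rxrb (-0.23), Phf1, a Polycomb accessory protein (-0.28), and Abhd16a, a phosphatidylserine lipase (-0.15), passed in threat minus naive and not in place minus naive, and Wdr46 (-0.14) the reverse. Threat minus place passed for 0 genes (0% of all), with 5 at an unadjusted p under 0.05 (3.94%, against 2.90% of all). Of 10 endothelial and mural markers 4 passed as lower in threat minus naive and 0 in place minus naive, with a median difference of -0.18 log2 in each. Of all genes 5.77% and 3.56% passed as lower in these contrasts. Threat minus place called 0 of the 10 markers. Their mean per library was 2.80 to 3.05 log2 in threat 24 h, 2.96 to 3.19 in place 24 h and 2.95 to 3.38 in naive libraries. Their part in these calls was not tested.

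Most of these calls rested on 1 block of naive libraries. Col11a2 was at 30.4 to 34.5 FPKM in naive replicates 1 to 4 and at 17.6 to 24.2 in 5 to 9. Against replicates 5 to 9 alone 2 genes passed for threat, Col11a2 (-0.46, adjusted p = 0.0288) and Dhx16 (-0.28, 0.0243), and 0 for place. Against replicates 1 to 4 alone 27 of 127 passed in each, 4 higher and 23 lower, where 1992 genes rose and 1905 fell for threat and 1571 rose and 1549 fell for place, of all 13153. The 9 calls for place became 4 and 5 without naive replicate 3 or 4, and 5 and 3 without place replicate 3 or 5. The blocks did not overlap for 16.5% of the region's genes, 18 higher and 3 lower in replicates 1 to 4, against 16.8% of all genes, 1201 higher and 1011 lower.

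**Figure D5:**
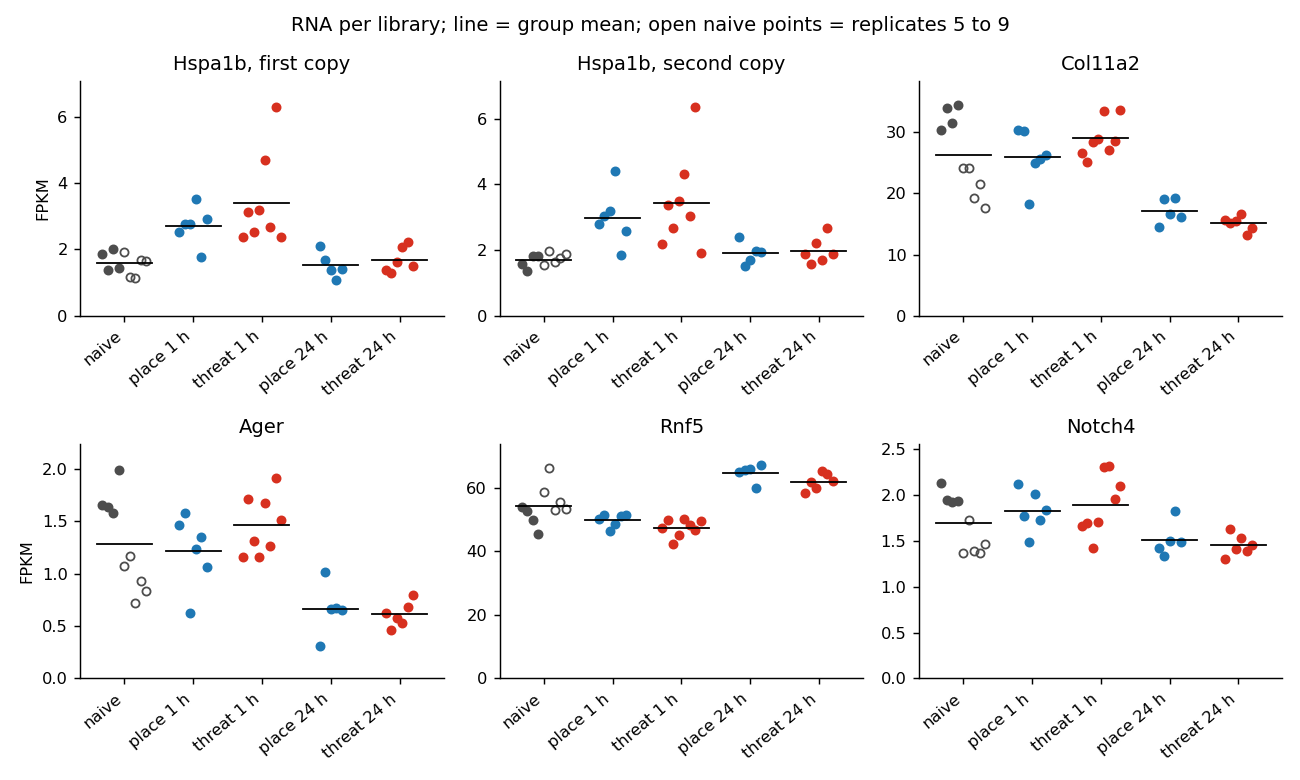
RNA per library (FPKM) of Hspa1b at its 2 listed positions, Col11a2, Ager, Rnf5 and Notch4 by group; lines are group means and open naive points are replicates 5 to 9. Hspa1b stands high in the 1 h groups, Col11a2 and Ager are low in the 24 h groups and in naive replicates 5 to 9, and Notch4 overlaps throughout.

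The spread of RNA between libraries of 1 group lay above the 95th percentile of all genes for 7 of the region's 127 genes, 5.51%, near the share that the percentile fixes over all genes. The median residual SD was 0.144 log2 in the region and 0.125 over all genes. The 7 are named as those of largest spread, 4 of them class I or class II genes with an RT1 symbol. The residual SD of RT1-M6-2 was at percentile 98.95 of all genes tested, with 0.107 to 2.83 FPKM over the 34 libraries. Within threat 1 h libraries alone it ran from 0.107 to 2.83, and within place 1 h from 0.112 to 2.61. RT1-T24-3 was at percentile 98.2 (0.683 to 5.20 FPKM), RT1-Da at 98.0 and RT1-CE7 at 95.2 (3.25 to 9.17). The other 3 have no symbol. Among them ENSRNOG00000047706 (2.43 to 12.3 FPKM) and ENSRNOG00000050210 (1.93 to 6.12) are counted here among the 16 detected class I genes.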

How the data were processed

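MBD values were deposited by the authors as a signal in RPKM per bin of 500 nt, and RNA values as FPKM per gene. Per the submitters' processing notes, the tools included Bowtie, edgeR, TopHat 1.4.0 and DESeq2. Both rn5 and mm10 are listed as builds, and no role is given for either. The tables are titled GRCm38, but their bins and genes fit rat rn5, which is used here. Read totals behind the FPKM values are not given in the sources used here. Whole reads were recovered from RPKM for 100% of values within 0.1 reads.

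Bins were tested with limma 3.58.1 (trend) on log2(RPKM + 0.25), per time, on the 10 captured libraries, where the captured mean reached 1 RPKM and 2 times the input mean. Captured against input used bins with a mean of 0.5 RPKM, and gene bodies 0.25. RNA was tested on log2(FPKM + 1) over 34 libraries. P-values were adjusted by Benjamini-Hochberg over all features, threshold 0.05. A pseudocount shrinks differences of low values. Alternatives were other filters, pseudocounts, quantile and median-ratio scaling, edgeR 4.0.16 on recovered reads, 2 groups alone, a replicate block and leaving out each library. Scripts were tested on simulated data.

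Members, gene lists and tests were chosen with earlier results of these data known. Named bins were the 12 largest changes in each direction past the threshold, or the 5 lowest p-values where fewer than 5 passed, the 10 highest captured and input bins, all two-level bins and Notch4 bins, of which the informative ones are printed. Named genes were those past the threshold and detected class I, class II and antigen processing genes. Bins just under the two-level rule, and the genes of largest spread, were picked after their values were seen.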

Additional observations from a re-analysis of the deposited data

Results flagged for a closer look

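In 127 groups of 4 to 10 libraries of the named bins and genes, 10 had 1 library apart from the rest by Dixon's criterion, which chance gives in about 1 in 20 groups. The place 1 h replicate 3 was lowest at 1.95 RPKM in chr20:271001-271500 in Tmlhe, and replicate 4 was highest at 1.03 RPKM in chr20:461001-461500. In RNA, the place 24 h replicate 4 was lowest for Rnf5 (59.8 FPKM) and replicate 1 highest for Wdr46 (10.2). The place 1 h replicate 3 was lowest for Vars2 (4.22 FPKM) and for Rgl2 (5.61). The threat 1 h replicate 3 was highest for Ppp1r11 (34.3 FPKM), and the threat 24 h replicates 3 and 4 were highest for Abhd16a (25) and lowest for Ddx39b (42.5). Naive replicate 1 was highest for RT1-DMb, ENSRNOG00000051002 (3.90 FPKM).

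In chr20:6524501-6525000 every place library was above every naive one at 1 h and below every naive one at 24 h. The difference at 1 h was 0.31 in log2(RPKM + 0.25), and the change between times was not tested, since the bin was under the filter at 24 h.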

How the results depend on the processing

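Of the alternatives to the counts and shares, 119 stayed within 1.5 times the value or the spread, 39 moved and 1 reversed. For captured bins the count of calls in the region was as follows. Threat minus naive at 1 h gave 3 without the input rule, 2 under quantile normalization, 2 under median-ratio scaling and 3 in edgeR. Threat minus place at 1 h gave 7 at a captured mean of 0.5 RPKM, 0 without the input rule, 0 under both scalings, 7 with only the 2 groups and 2 in edgeR. Captured above input gave 1308 (1 h) and 229 (24 h) at a mean of 1 RPKM, and 1067 and 498 under quantile normalization. Threat minus naive at 24 h gave 1 with a pseudocount of 1. Threat minus place at 24 h gave 7 at 0.5 RPKM, 4 without the input rule, and 0 under both scalings and in edgeR. Two-level bins at 1 h numbered 12, 0, 2 and 0 with a gap of 1.5, a gap of 3, an upper level of 2 RPKM and a pseudocount of 1. Over all eligible bins the shares under these rules were 0.133%, 0.00509%, 0.0228% and 0.00772%. The share of reads for place minus naive at 1 h was 0.00404 percentage points in tested bins alone, against -3.43e-05 over the region.

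For RNA, threat minus naive at 1 h gave 1 with a filter of 5 FPKM, 1 with only the 2 groups, 0 against naive replicates 1 to 4 and 26 against 5 to 9. Place minus naive at 1 h gave 16 against 5 to 9. At 24 h the counts against 1 to 4 and 5 to 9 were 27 and 2 for threat, and 27 and 0 for place, which gave 0 with only the 2 groups.

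Libraries were treated as unpaired in the main tests. Same-numbered deviations from the group mean correlated at -0.142 to 0.0509 in MBD, with 0 of 18 pairs above 0.1. In RNA they correlated at -0.497 to 0.587, with 17 of 58 above. Differently numbered libraries were not compared, so the check cannot settle whether replicate numbers pair the RNA libraries. A replicate block gave 10 calls for threat minus place at 1 h, 12 for threat minus naive and 30 for threat minus place at 24 h, and 15 for RNA place minus naive at 24 h.

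Leaving out 1 library gave 2 to 50 calls (highest without threat replicate 3) for threat minus naive at 1 h, 0 to 2 for place minus naive, 0 to 12 (without place replicate 4) for threat minus place, and 2096 to 2197 captured above input. At 24 h it gave 0 to 4, 0 to 0, 0 to 53 and 1637 to 1693. Two-level bins ranged from 2 to 6 and from 0 to 3. RNA gave 2 to 12 (without naive replicate 4), 0 to 2 and 0 to 0 at 1 h, and 10 to 16, 3 to 13 and 0 to 0 at 24 h. Shares differed by 0.016 to 0.0318, -0.00452 to 0.00236 and 0.0161 to 0.0319 at 1 h, and by 0.00206 to 0.00915, -0.00278 to 0.000627 and 0.00269 to 0.00978 at 24 h. A lone remaining pair of libraries was assumed to vary like the other groups. The cause was not tested for any of these.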
